A study of Mus musculus with 24 samples.

Results

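The 30 genes described here encode nuclear receptors, the family of transcription factors that bind small lipophilic ligands and DNA. They were chosen by gene name from a list that leaves out the REV-ERB and ROR receptors of the circadian clock. All 30 were found among the 43629 gene identifiers of the files. Their transcripts were measured by RNA sequencing of liver from wild-type C57BL/6 mice of 2 ages, old mice of about 19 months and young mice of about 4 months. No other allele, agent or diet separates the groups in the labels. Liver was taken at zeitgeber times ZT2, ZT6, ZT10, ZT14, ZT18 and ZT22, where ZT counts hours after lights on. Each age and time has 2 replicate libraries, so 12 libraries are from old liver and 12 from young liver, 24 in all. Sex, and whether the replicates are separate animals, are not given in the sources used here, and the p-values therefore cover only the spread between the libraries, which may be technical.

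A nuclear receptor usually carries a DNA-binding domain of zinc fingers and a pocket for a ligand such as a fatty acid, oxysterol, bile acid, steroid or thyroid hormone. Many bind DNA as partners of a retinoid X receptor (RXR), and a bound ligand swaps corepressors for coactivators. In hepatocytes they set the use of fat, the synthesis of bile acids, the clearance of drugs and the response to glucocorticoids. REV-ERB and ROR receptors are part of the molecular clock itself, and many other members are known to cycle in metabolic tissues.

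Mapped depth was equivalent to 8.70 to 12.3 M reads of 50 bases in old libraries and 9.68 to 13.7 M in young libraries. Levels are TPM, a transcript abundance that allows for transcript length and has a fixed sum per library, scaled so that the median gene is alike in all libraries. Summed hepatocyte markers (7 of 7 tested) were at 79696 to 107930 scaled TPM in old and 74920 to 106300 in young libraries. A pair of libraries stood apart. Young ZT18 replicate 2 held a sum of 3151 scaled TPM over pancreatic acinar markers, against at most 12.1 in any other library, and old ZT14 replicate 1 had 3.42% of its TPM on mitochondrial genes, against at least 8.74% in every other library. Results that change without these 2 libraries are given beside the result.

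Of the 15 receptors that passed the test for a daily rhythm (described further on), 9 passed it under every processing tried where they were tested. RefSeq promoter windows, 250 bases before to 50 bases after a start site on GRCm38.p6, were found for 8 of these 9 genes (9 windows, none for Thra) and for 28 of the 30 members. The E-box CACGTG, the sequence bound by CLOCK and BMAL1, was in the window of Nr0b2 and in that of Nr1i3, 2 of 9 windows, against 7.15% of all 32851 windows. The nuclear receptor hexamer AGGTCA, searched on both strands like the other motifs, was in 1 of 9, a window of Nr1h4, against 16.3% of all. That Nr1h4 window (chr10:89506659-89506908) belongs to a start site inside the annotated gene (chr10:89454234-89533585, minus strand), not at its upstream end. The glucocorticoid hexamer TGTTCT was in 1 of 9, that of Nr1i2, against 19.0% of all. TTANGTAA (D-box), TAGGTCA (REV-ERB and ROR element, which contains the hexamer) and TGACGTCA (cAMP response element) were in none of the 9, against 2.32%, 2.61% and 1.79% of all. Over all 42 windows of the members, the E-box was in 5, AGGTCA in 9, TGTTCT in 4 and TGACGTCA in 1. TTANGTAA and TAGGTCA were in 0 of the 42. A match is a description of letters in a window. The 250 bases before the start are shown for the 3 windows with a match there, with the match in capitals.
Nr0b2 (chr4:133553126-133553375, plus strand, E-box starting at base -195): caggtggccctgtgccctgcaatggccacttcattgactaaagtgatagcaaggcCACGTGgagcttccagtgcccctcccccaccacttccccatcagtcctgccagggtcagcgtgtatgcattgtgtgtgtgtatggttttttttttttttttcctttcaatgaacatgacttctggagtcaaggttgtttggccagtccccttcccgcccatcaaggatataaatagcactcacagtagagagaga
Nr1i3 (chr1:171213720-171213969, plus strand, E-box starting at base -244): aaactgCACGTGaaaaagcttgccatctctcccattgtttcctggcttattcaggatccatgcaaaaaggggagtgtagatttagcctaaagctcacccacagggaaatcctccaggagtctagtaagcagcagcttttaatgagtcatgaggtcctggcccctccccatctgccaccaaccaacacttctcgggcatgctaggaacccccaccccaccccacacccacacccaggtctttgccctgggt
Nr1h4 (chr10:89506659-89506908, minus strand, hexamer read as its reverse complement from base -214): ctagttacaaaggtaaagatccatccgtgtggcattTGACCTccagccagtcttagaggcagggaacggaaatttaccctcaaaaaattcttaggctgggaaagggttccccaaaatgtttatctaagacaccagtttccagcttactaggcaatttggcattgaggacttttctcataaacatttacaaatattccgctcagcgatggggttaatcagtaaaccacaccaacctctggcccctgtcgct

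The first question was how much of each receptor's transcript the liver holds. Hnf4a, the hepatocyte-defining receptor, was the most abundant, at 187.7 ± 32.8 scaled TPM in old and 196.7 ± 46.9 in young liver (SD over times and replicates, n = 12 each). The bile acid receptor Nr1h4 (FXR) followed with a mean of 93.4 over all 24 libraries, then the RXR gene Rxra with 80.3 and the oxysterol receptor Nr1h3 (LXR alpha) with 70.5. Nr2f6, Ppara, Nr1i3, Nr1i2, Nr0b2 and Nr3c1 formed a middle group with means of 48.5, 45.9, 42.2, 39.2, 32.6 and 30.4. Esrra (18.7), Nr5a2 (18.4), Nr1h2 (16.9), Rxrb (13.4) and Nr2f2 (10.2) came next. The remaining 13 tested receptors had means between 1.61 (Nr6a1) and 9.97 (Thrb).

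The order was firm only at a few steps. Hnf4a exceeded Nr1h4 in 24 of 24 libraries, Nr1h3 exceeded Nr2f6 in 24 of 24, and Nr3c1 exceeded Esrra in 22 of 24. Those gaps were 2.48, 1.54 and 2.16 times the larger SD of the neighbours. By contrast Nr1h4 exceeded Rxra in 16 of 24, Esrra exceeded Nr5a2 in 11 of 24 and Pparg exceeded Esr1 in 14 of 24, with gaps under 1 SD, so these neighbours did not differ beyond their spread. Liver is a mixture of cells, and fewer cells of a type and less RNA per cell cannot be told apart in these values.

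A pair of members lay below the filter of a mean of 1 scaled TPM and were not tested. Vdr, the vitamin D receptor, had a value of 0 in all but 1 library of each age, and its highest value was 0.0617 in old and 0.0652 in young. Nr4a2, an immediate early receptor, had a value of 0 in 10 of the 12 old libraries and in 5 of the 12 young ones, with highest values of 0.169 in old and 0.193 in young. Of the 28 tested members Nr4a1 was the most scattered, at 0 to 14.6 scaled TPM in old and 0 to 6.87 in young.

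**Figure D1:**
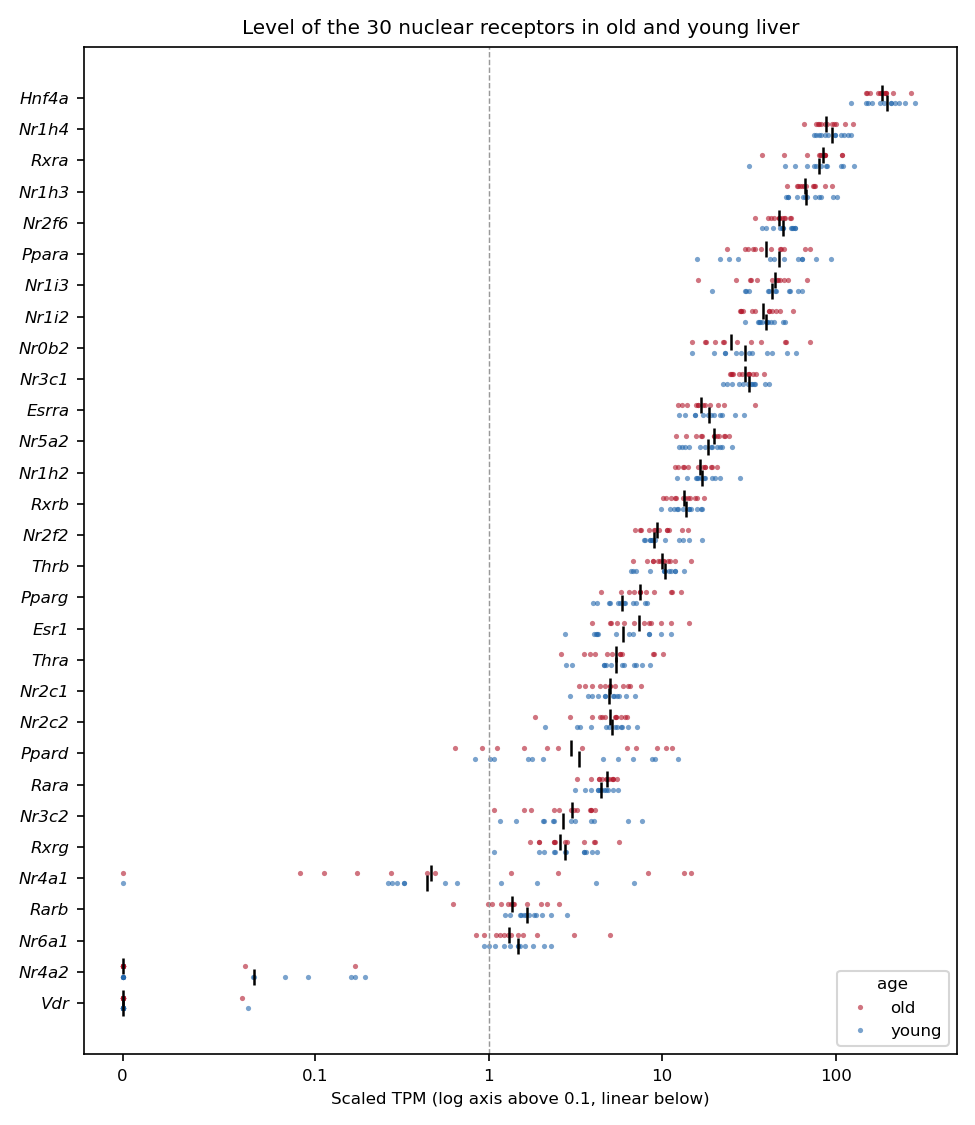
Scaled TPM of the 30 nuclear receptors, 1 point per library, with old libraries in red above young libraries in blue in each row and a black tick at each median. The axis is logarithmic above 0.1 and linear below, and the dashed line marks the filter at 1. Hnf4a lies highest in both ages, and Vdr and Nr4a2 lie left of the filter.

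The second question was which receptors change over the day. A 24 h cosine fitted to log2(scaled TPM + 0.5) passed the test on the mean of both ages for 15 of the 28 tested receptors (limma, Benjamini-Hochberg adjusted p under 0.05 over 12234 genes). Among all genes tested 23.9% passed. Without ZT10 the count was 10. The median log2 difference between fitted peak and trough, called amplitude here, was 0.56 over the 28 receptors and 0.36 over all genes tested. Of the 15 fitted peaks, 6 fell between ZT12 and ZT17, 6 between ZT22 and ZT5, and 3 between ZT7 and ZT11. These windows differ in width, and the share of all rhythmic genes in each was not counted. The split is thus a description and not shown to be particular to the receptors. The bile acid receptor Nr1h4, the drug receptors Nr1i2 and Nr1i3, Hnf4a and Esrra peaked between ZT13.1 and ZT14.5. Ppard, Nr0b2 and Thra peaked around lights on, at ZT22.2, ZT2.1 and ZT2.2. The 15 were Ppard, Nr0b2, Ppara, Esr1, Thra, Nr1i3, Nr3c2, Esrra, Nr6a1, Nr2c2, Nr2f2, Nr1h4, Nr1i2, Hnf4a and Nr2f6, in order of falling amplitude, from 2.91 to 0.37.

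**Figure D2:**
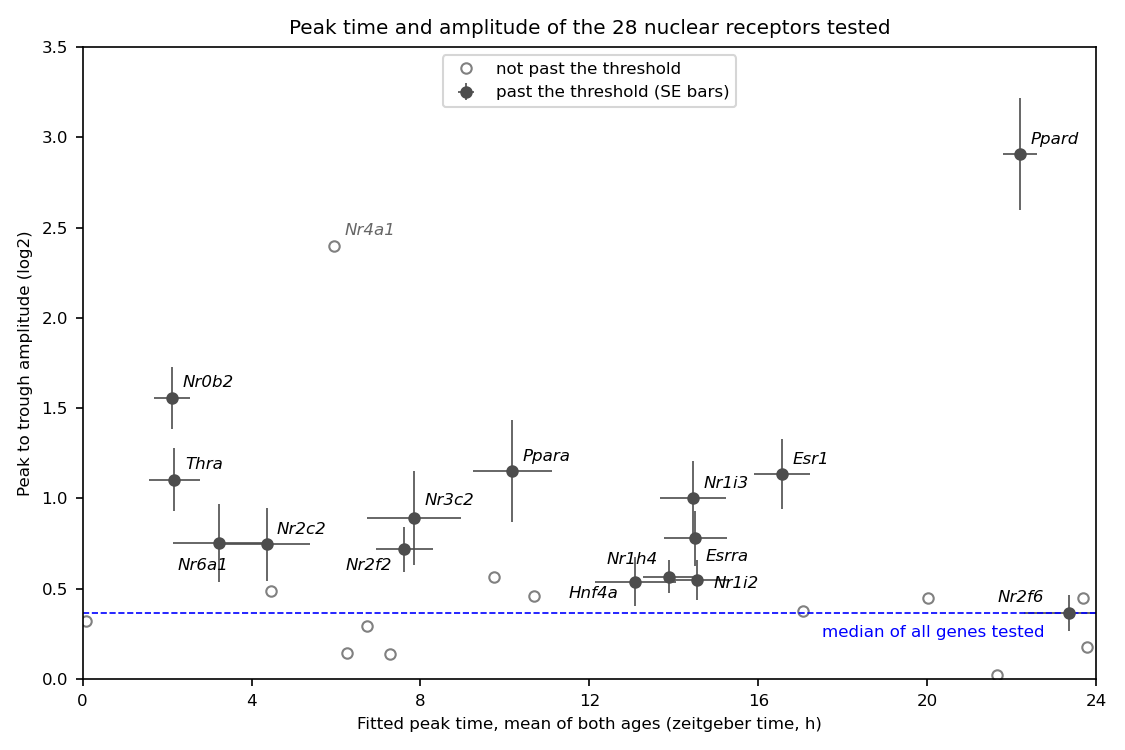
Fitted peak time in zeitgeber hours (x axis) against peak to trough amplitude on the log2 scale (y axis) for the 28 receptors tested, on the mean of both ages. Filled points passed the test and carry bars of 1 SE, open points did not, and the dashed line is the median amplitude of all genes tested (0.36). Ppard stands highest at 2.91, and Nr4a1 at 2.40 is open.

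The bile acid receptor gene Nr1h4 and the gene Nr0b2 peaked on opposite sides of the day. Nr1h4 (chr10:89454234-89533585, minus strand) encodes FXR, which senses bile acids and induces Nr0b2. Nr0b2 (chr4:133553376-133556536, plus strand) encodes SHP, a receptor without a DNA-binding domain that represses bile acid synthesis genes. In old liver Nr0b2 had scaled TPM of 51 and 71.2 at ZT2, 52 and 32.5 at ZT6, 22.8 and 18 at ZT10, 14.8 and 20.2 at ZT14, 26.9 and 17.6 at ZT18 and 22.4 and 36.9 at ZT22. In young liver Nr0b2 was at 52.5 and 59 at ZT2, 43 and 31.7 at ZT6, 23 and 22.9 at ZT10, 14.8 and 19.9 at ZT14, 28.5 and 26.7 at ZT18 and 33 and 40.3 at ZT22. At both ages the 4 values of ZT10 and ZT14 lay below the 4 values of ZT2 and ZT6. The amplitude of Nr0b2 was 1.56 (SE 0.17) with a peak at ZT2.1 (SE 0.42 h) and an adjusted p of 3.66e-06 by limma.

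Nr1h4 moved less and the other way. In old liver Nr1h4 had scaled TPM of 77.5 and 65.3 at ZT2, 86.8 and 82.2 at ZT6, 125 and 95.2 at ZT10, 113 and 88.7 at ZT14, 99.8 and 98.2 at ZT18 and 80.4 and 78.8 at ZT22. In young liver Nr1h4 was at 80.2 and 82.8 at ZT2, 90.5 and 76.8 at ZT6, 99.5 and 98.7 at ZT10, 118 and 112 at ZT14, 122 and 107 at ZT18 and 86.7 and 75.4 at ZT22. The lowest values lay at ZT2, ZT6 and ZT22, and the highest at ZT10 in old and at ZT18 in young liver. Its amplitude was 0.57 (SE 0.09) with a peak at ZT13.9 and an adjusted p of 0.000295. The fitted peaks of Nr1h4 and Nr0b2 were 11.8 h apart. The promoter windows of these genes are those printed above, with an E-box in Nr0b2 and a hexamer in Nr1h4. The Nr1h4 window is that of a start site inside the gene.

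Of the 8 tested genes in a list of FXR and SHP targets, 6 were rhythmic, against 23.9% of all genes tested. Over the day 0 of the 8 differed by age (1 at an unadjusted p under 0.05), against 1.63% of all genes. Cyp7a1, the rate-limiting enzyme of bile acid synthesis, had an amplitude of 2.0 (SE 0.27) and peaked at ZT14.7. Abcb11, the bile salt export pump, peaked at ZT2.5 (amplitude 1.43), Cyp8b1, which sets the cholic acid share, at ZT0.82 (1.27), and Abcb4, the phospholipid exporter, at ZT8.1 (0.78). The other two were Slc10a1, the bile acid uptake carrier, at ZT10 (0.47) and Klb, the coreceptor of the hormone FGF15, at ZT7.2 (0.71). Peaks of these 6 thus ran from ZT0.82 (Cyp8b1) to ZT14.7 (Cyp7a1), and their gaps to the peaks of Nr0b2 and Nr1h4 were not tested.

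The drug receptors Nr1i2 (PXR) and Nr1i3 (CAR) had nearly the same fitted peak time. Both are activated by drugs and other foreign compounds and induce cytochromes P450 and transporters. Nr1i3 (chr1:171213970-171220701, plus strand) had scaled TPM of 26.7 and 32.6 at ZT2, 16.2 and 35.2 at ZT6, 42.9 and 50.3 at ZT10, 68.6 and 46.6 at ZT14, 53.1 and 32 at ZT18 and 46 and 47.8 at ZT22 in old liver. In young liver Nr1i3 was at 19.3 and 31.7 at ZT2, 41.4 and 30.2 at ZT6, 54.3 and 60.8 at ZT10, 64 and 53.5 at ZT14, 40.5 and 44.6 at ZT18 and 30.2 and 45 at ZT22. All 4 old and 4 young libraries of ZT10 and ZT14 exceeded those of ZT2 and ZT6. Its amplitude was 1.0 (SE 0.20), its peak ZT14.5 and its adjusted p 0.00354. Nr1i3 shares 4691 bases with Tomm40l on the other strand. The counting strand is not given, so reads of these genes cannot be told apart. Tomm40l averaged 7.58 scaled TPM with a fitted peak at ZT0.81 and did not pass (adjusted p = 0.174).

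Nr1i2 (chr16:38248323-38294824, minus strand) had scaled TPM of 29.1 and 28.3 at ZT2, 28 and 28.6 at ZT6, 47.8 and 34.3 at ZT10, 56.5 and 41.4 at ZT14, 43.1 and 45.3 at ZT18 and 41.4 and 32.7 at ZT22 in old liver. In young liver Nr1i2 was at 29.9 and 36.6 at ZT2, 36 and 39.9 at ZT6, 44 and 49.9 at ZT10, 51.2 and 39.8 at ZT14, 35.6 and 37.5 at ZT18 and 40.8 and 42.2 at ZT22. In old liver all 4 libraries of ZT2 and ZT6 lay below the other 8, while the young values ran closer together. On the mean of both ages its amplitude was 0.55 (SE 0.11), its peak ZT14.5 and its adjusted p 0.00287. The fitted peaks of Nr1i2 and Nr1i3 were 0.087 h apart, less than their SE of 0.76 and 0.78 h.

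In a list of CAR and PXR targets, 5 of 13 tested genes were rhythmic, against 23.9% of all genes tested. Alas1, the first enzyme of heme synthesis, had an amplitude of 3.41 (SE 0.38) and peaked at ZT13. Por, the reductase that serves all microsomal P450 enzymes, had an amplitude of 2.13 (SE 0.20) and peaked at ZT11.8. The exporter Abcb1a peaked at ZT12 (amplitude 1.44) and the uptake carrier Slco1a4 at ZT12.5 (1.01). The P450 gene Cyp3a13 peaked at ZT16.5 (0.37). Of these 5 fitted peaks 4 preceded those of Nr1i2 and Nr1i3 and that of Cyp3a13 followed them, and the gaps were not tested. By age, 1 of the 13 fell in old liver over the day, against 0.499% of all genes lower in old. It was Cyp3a11, a further P450 gene, at 2086 ± 533.9 scaled TPM in old and 3482 ± 543.9 in young liver (SD, n = 12 each). Its log2 difference was -0.76 (SE 0.12, adjusted p = 0.00245 by limma), while the receptors themselves differed by -0.10 (Nr1i2, SE 0.08) and -0.06 (Nr1i3, SE 0.14), neither past the test.

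**Figure D3:**
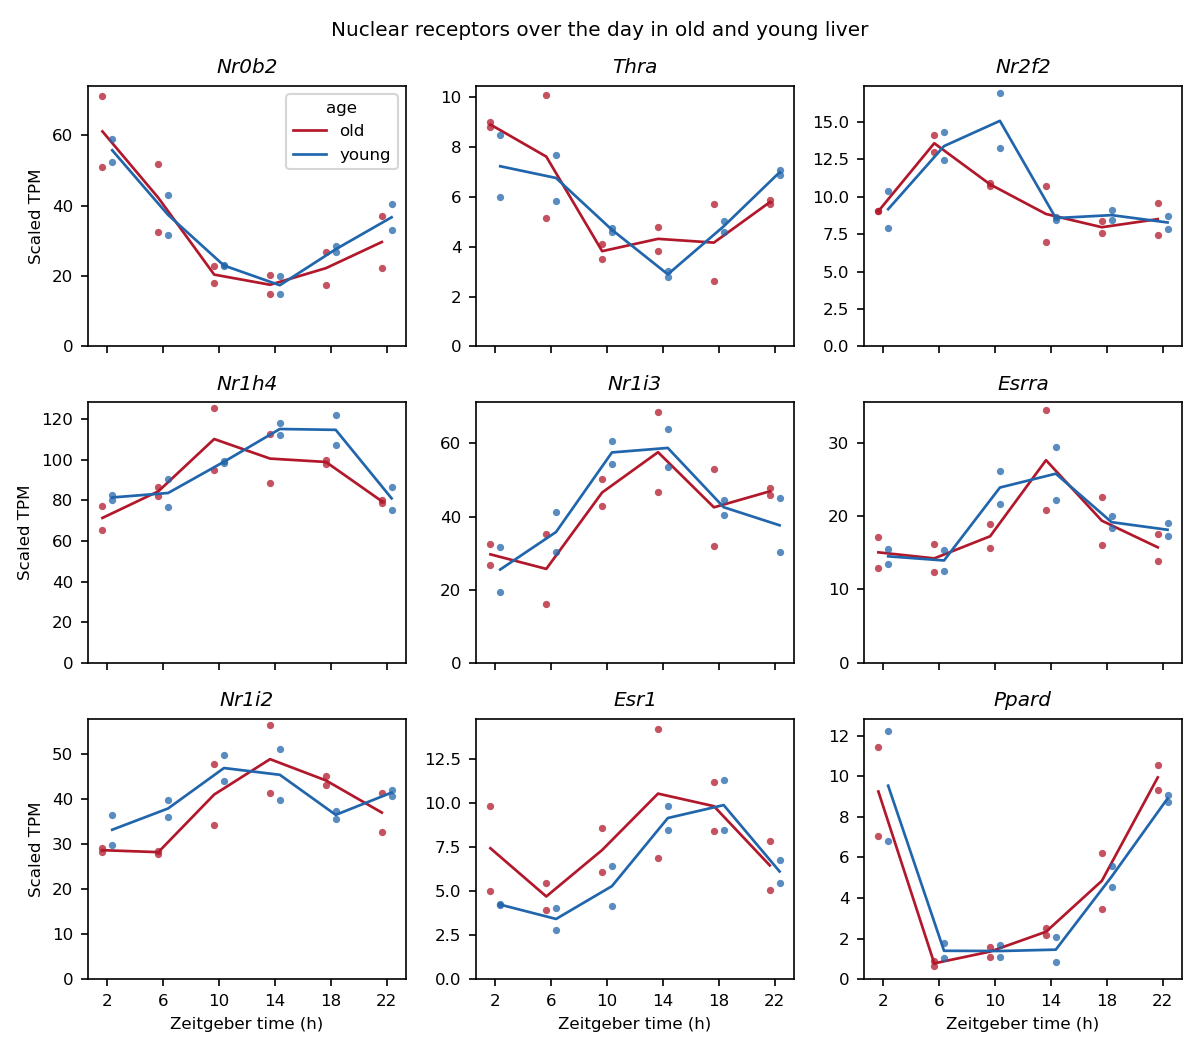
Scaled TPM against zeitgeber time for the 9 receptors that were rhythmic under every processing tried where they were tested, with old in red and young in blue. Points are libraries, shifted slightly sideways by age, and lines join the means of 2 replicates. Nr0b2 and Thra lie high at ZT2, and Nr2f2 lies high at ZT6 and ZT10. Nr1h4, Nr1i3, Nr1i2, Esr1 and Esrra have their highest mean at ZT10, ZT14 or ZT18 at both ages.

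Of the fatty acid receptors, Ppard showed the largest rhythm. Ppard (chr17:28232754-28301469, plus strand) encodes PPAR delta, a widely expressed sensor of fatty acids. In old liver Ppard had scaled TPM of 7.04 and 11.4 at ZT2, 0.636 and 0.915 at ZT6, 1.11 and 1.6 at ZT10, 2.16 and 2.51 at ZT14, 6.23 and 3.46 at ZT18 and 9.31 and 10.6 at ZT22. In young liver Ppard was at 12.3 and 6.81 at ZT2, 1.77 and 1.02 at ZT6, 1.69 and 1.07 at ZT10, 0.835 and 2.07 at ZT14, 4.55 and 5.55 at ZT18 and 8.74 and 9.07 at ZT22. Every library of ZT2 and ZT22 was at or above 6.81, and every library of ZT6, ZT10 and ZT14 was at or below 2.51. The amplitude of 2.91 (SE 0.31) was the largest of the 28, with a peak at ZT22.2 and an adjusted p of 2.35e-06 by limma. Over the alternatives it ranged between 1.74 and 3.43.

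Ppara (chr15:85734983-85802819, plus strand) encodes PPAR alpha, the receptor that drives fatty acid oxidation in fasting. In old liver Ppara had scaled TPM of 34.1 and 33.3 at ZT2, 31.1 and 48.4 at ZT6, 48 and 71.5 at ZT10, 50.2 and 66.9 at ZT14, 30.1 and 37.1 at ZT18 and 23.7 and 42.3 at ZT22. In young liver Ppara was at 27.2 and 44 at ZT2, 50.2 and 60.8 at ZT6, 94 and 77.4 at ZT10, 24.4 and 63.6 at ZT14, 21.4 and 63.8 at ZT18 and 15.9 and 41.6 at ZT22. The replicates at ZT14, ZT18 and ZT22 of young liver were far apart, and replicate 2 was the higher library in 10 of 12 groups. The amplitude was 1.15 (SE 0.28), the peak ZT10.2 and the adjusted p 0.0140. Without ZT10 the call was lost (adjusted p = 0.245). The peaks of Ppara and Ppard were 11.97 h apart.

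Pparg, the receptor of fat cell formation, was not rhythmic (amplitude 0.46, adjusted p = 0.184). It passed with the unscaled deposited TPM (adjusted p = 0.0486 by limma). Of 19 tested genes in a list of PPAR targets, 7 were rhythmic, against 23.9% of all genes. Pdk4, which spares glucose, had an amplitude of 3.07 (SE 0.34) and peaked at ZT22.6, near Ppard. Cpt1a, the gate of fatty acid entry into mitochondria, peaked at ZT9.2 (1.56) and Angptl4, an inhibitor of lipoprotein lipase, at ZT8.6 (1.37), near Ppara. The acyl-CoA thioesterase gene Acot1 peaked at ZT18.5 (1.08), with an amplitude of 1.88 in old and 0.32 in young liver. The test of that difference by age gave an unadjusted p of 0.00021 and an adjusted p of 0.434 by limma.

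By age, 4 of the 19 PPAR targets changed over the day, against 1.63% of all genes, 2 up and 2 down in old liver. As the list was chosen with earlier results of these data known, that share is a description only. Cyp4a10, a fatty acid omega-hydroxylase, fell by 1.32 on the log2 scale (SE 0.18, adjusted p = 0.000821), with 65.8 ± 28.7 scaled TPM in old and 159.5 ± 50.7 in young. Acot1 fell by 0.74 (adjusted p = 0.00335), also passed at ZT10 (-1.53, adjusted p = 0.0309) and lost its call without ZT10 (adjusted p = 0.0557). Cidec, which enlarges lipid droplets, rose by 1.47 (SE 0.28, adjusted p = 0.00974), with 3.14 ± 1.76 in old and 0.787 ± 0.687 in young liver. Cd36, a fatty acid carrier, rose by 0.56 (adjusted p = 0.0259) and lost its call in 9 of 35 alternatives, 7 of them leaving out 1 library (5 young and 2 old, adjusted p up to 0.0578), with a highest adjusted p of 0.130 without ZT10. The receptors differed by -0.06 (Ppara, SE 0.22) and 0.01 (Ppard, SE 0.15). The sum of 4 adipocyte markers, 2 of them at 0 in all libraries of each age, was 0 to 8.36 (median 1.78) in old and 0 to 4.50 (median 0.429) in young libraries, and its part in the Cidec and Cd36 values was not tested.

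**Figure D4:**
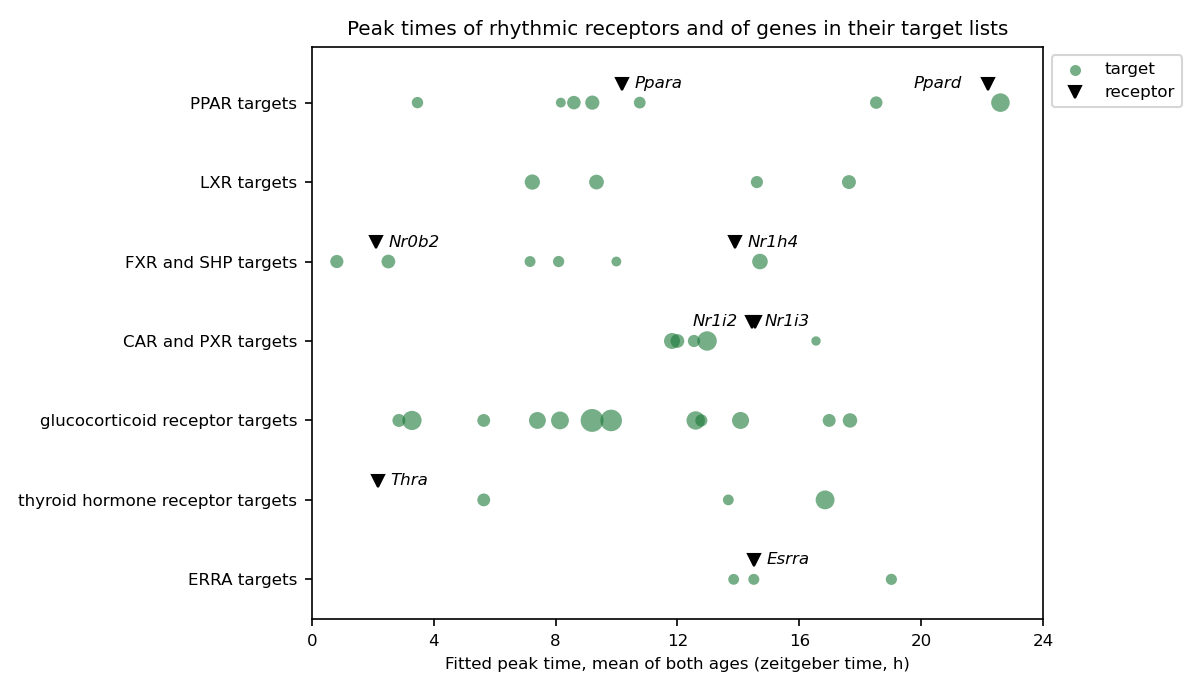
Fitted peak times in zeitgeber hours of the rhythmic receptors (black triangles) and of the rhythmic genes in their target lists (green points, larger for larger amplitude). CAR and PXR targets lie between ZT11.8 and ZT16.5, and PPAR targets between ZT3.5 and ZT22.6.

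Of the thyroid hormone receptors, Thra passed the rhythm test and Thrb did not. Thra (chr11:98740638-98769006, plus strand) encodes thyroid hormone receptor alpha, and Thrb encodes the beta form that carries most of the hormone's action in liver. In old liver Thra had scaled TPM of 9.01 and 8.81 at ZT2, 10.1 and 5.16 at ZT6, 4.12 and 3.53 at ZT10, 4.79 and 3.85 at ZT14, 5.72 and 2.61 at ZT18 and 5.88 and 5.7 at ZT22. In young liver Thra was at 8.49 and 5.98 at ZT2, 7.68 and 5.84 at ZT6, 4.77 and 4.6 at ZT10, 2.77 and 3.02 at ZT14, 5.04 and 4.6 at ZT18 and 6.88 and 7.1 at ZT22. Values were high at ZT2 and lower from ZT10 to ZT18, with the replicates of old ZT6 at 10.1 and 5.16. The amplitude was 1.10 (SE 0.18), the peak ZT2.2 and the adjusted p 0.000284. Thra shares 1075 bases with Nr1d1 (REV-ERB alpha) on the other strand, so their reads cannot be told apart without the counting strand. Nr1d1 had an amplitude of 5.82 and peaked at ZT7.4. Thrb had an amplitude of 0.17 (adjusted p = 0.723). The difference between the rhythms of these 2 genes was not tested.

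Of 4 tested thyroid hormone targets, 3 were rhythmic, against 23.9% of all genes, and 0 differed by age over the day (0 unadjusted). Thrsp, a regulator of lipogenesis, had an amplitude of 3.19 (SE 0.27) and peaked at ZT16.8. Klf9, a transcription factor also counted among the glucocorticoid targets, peaked at ZT5.6 (1.18), and the deiodinase Dio1 at ZT13.7 (0.68).

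Among the steroid receptors, Esr1 and Nr3c2 passed the rhythm test and Nr3c1 did not. Esr1 (chr10:4611593-5005614, plus strand) encodes estrogen receptor alpha. In old liver Esr1 had scaled TPM of 5.01 and 9.81 at ZT2, 3.92 and 5.45 at ZT6, 6.05 and 8.58 at ZT10, 6.84 and 14.2 at ZT14, 8.4 and 11.2 at ZT18 and 5.04 and 7.85 at ZT22. In young liver Esr1 was at 4.19 and 4.25 at ZT2, 2.77 and 4.05 at ZT6, 6.4 and 4.14 at ZT10, 9.82 and 8.43 at ZT14, 8.42 and 11.3 at ZT18 and 5.43 and 6.77 at ZT22. At both ages ZT6 held the lowest library and ZT14 (old) or ZT18 (young) the highest, and replicate 2 was the higher in 10 of 12 groups. The amplitude was 1.14 (SE 0.20), the peak ZT16.6 and the adjusted p 0.000701.

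Nr3c2, the mineralocorticoid receptor, ranged from 1.08 to 4.07 scaled TPM in old (median 3.04) and from 1.16 to 7.67 in young liver (median 2.67). Its amplitude of 0.89 (SE 0.26, peak ZT7.9, adjusted p = 0.0408) was lost in 17 of 34 alternatives, with a highest adjusted p of 0.336. Leaving out 1 library ended it for 14 of 24 libraries (adjusted p up to 0.0892), replicate 1 of every time but ZT14 and replicate 2 of ZT6 and ZT10 in old, and replicate 1 of every time but ZT14 and replicate 2 of ZT10 and ZT14 in young liver. Nr3c1, the glucocorticoid receptor, had the smallest amplitude of the 28. It ranged from 24.4 to 38.7 scaled TPM in old (median 29.9) and from 22.3 to 41.1 in young liver (median 31.8), with an amplitude of 0.02 (SE 0.15, adjusted p = 0.993). In a list of 15 glucocorticoid targets, 12 were rhythmic, against 23.9% of all genes. Fkbp5, a chaperone partner of the receptor, had an amplitude of 2.49 (SE 0.23) and peaked at ZT14.1. Tsc22d3, which encodes the anti-inflammatory protein GILZ, peaked at ZT17.7 (1.64). The metallothionein gene Mt1 peaked at ZT9.8 with an amplitude of 6.11 in old liver (adjusted p = 0.000271) and 2.57 in young liver (adjusted p = 0.133), and the test of the difference by age gave an unadjusted p of 0.0288 and an adjusted p of 0.9999 by limma. Its 12 old libraries spanned 7.88 to 2591 scaled TPM (median 29.3), against 5.80 to 88.9 (median 17.9) in young.

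Over the day, 1 of those 15 changed by age, against 1.63% of all genes. The list was chosen with earlier results of these data known, so its shares by age are descriptions only. Lcn2, an iron-binding acute phase protein, rose by 2.66 on the log2 scale in old liver (SE 0.34, adjusted p = 0.000378), and 12 old libraries spanned 6.40 to 668 scaled TPM (median 23.9), against 2.503 to 11.2 (median 5.28) in young. At ZT10 alone 3 of the 15 were higher in old liver, against 0.531% of all genes in either direction, and at the other times 0. These were Lcn2 (6.46, adjusted p = 0.00224), Mt1 (4.39, adjusted p = 0.0111) and the second metallothionein gene Mt2 (6.25, adjusted p = 0.0271), as log2 differences by limma. The sum of 4 neutrophil markers, of which Ly6g is below the filter, was 2.63 to 124 (median 27.6) in old and 3.48 to 22.5 (median 9.004) in young libraries. At ZT10 the neutrophil sum was 101 and 124 in old and 3.48 and 4.19 in young libraries. At ZT6 it was 89.3 and 106 in old and 16.3 and 20.0 in young libraries. Summed Kupffer cell markers at ZT10 were 514 and 733 in old and 308 and 272 in young libraries. The part of these sums in the Lcn2, Mt1 and Mt2 values was not tested.

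The oxysterol receptors Nr1h3 and Nr1h2 bind cholesterol derivatives and induce sterol export and lipogenesis. Nr1h3 was at 52.4 to 94.8 scaled TPM (median 66.5) in old and 51.5 to 101.7 (median 67.7) in young liver. Its amplitude of 0.45 (SE 0.14) with a peak at ZT20.0 did not pass (adjusted p = 0.0607). It passed when the 2 libraries that stood apart were left out, and with a replicate block (a term for the replicate number). Leaving out 1 library at a time, it passed in 5 of 24 fits. Nr1h2 had an amplitude of 0.30 (adjusted p = 0.379) and passed only on coverage values (adjusted p = 0.0231 by limma). Of 10 tested LXR targets, 4 were rhythmic, against 23.9% of all genes. Abcg5 and Abcg8, the partner subunits of the sterol exporter, peaked at ZT9.3 (amplitude 1.73) and ZT7.2 (1.89). Fasn, fatty acid synthase, peaked at ZT17.6 (1.49) and Srebf1, its regulator, at ZT14.6 (0.998). Over the day 1 of 10 rose in old liver, against 1.14% of all genes, the phospholipid transfer protein gene Pltp, by 0.71 (SE 0.15, adjusted p = 0.0216). Its call was lost in 8 of 35 alternatives, 7 of them leaving out 1 library (3 young and 4 old, adjusted p up to 0.0551). The sum of the 7 Kupffer cell markers found was 265 to 733 (median 344) in old and 251 to 363 (median 307) in young libraries, and its part in the Pltp value was not tested.

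None of the retinoid receptors passed the rhythm test. Rara, Rarb, Rxra, Rxrb and Rxrg had amplitudes of 0.14, 0.38, 0.56, 0.14 and 0.45, and 0 of these 5 passed, with adjusted p between 0.250 and 0.724 by limma. Rxra, the main partner of the other receptors in liver, ranged from 37.5 to 109 scaled TPM in old (median 84.2) and from 31.8 to 127.7 in young (median 79.6). Its rhythm passed when young ZT14 replicate 1 was left out (adjusted p = 0.0279 by limma). In that library Rxra was at 31.8, against 107 in replicate 2. Of 9 tested genes of retinoid response and metabolism 3 were rhythmic, against 23.9% of all genes. Dhrs3, which returns retinal to retinol, peaked at ZT0.72 (amplitude 1.17), Stra6l, a receptor for retinol-binding protein, at ZT1.6 (1.34) and Aldh1a1, which makes retinoic acid, at ZT19.3 (0.59). Cyp26a1, which degrades retinoic acid, rose in old liver by 1.02 (SE 0.24, adjusted p = 0.0385), a call lost in 20 of 35 alternatives, 15 of them leaving out 1 library (adjusted p up to 0.118 in all). Of 17 tested coregulators 0 differed by age over the day by limma (0 unadjusted), against 1.63% of all genes.

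Of Hnf4a and the related NR2 receptors, Hnf4a, Nr2c2, Nr2f2 and Nr2f6 passed the rhythm test and Nr2c1 did not. Among all genes tested 23.9% passed. Hnf4a (chr2:163506808-163572910, plus strand) had scaled TPM of 149 and 175 at ZT2, 158 and 193 at ZT6, 195 and 189.6 at ZT10, 271 and 215 at ZT14, 152 and 194 at ZT18 and 182 and 179.5 at ZT22 in old liver. In young liver Hnf4a was at 123 and 161 at ZT2, 154 and 208 at ZT6, 221 and 233 at ZT10, 252 and 286 at ZT14, 149 and 179 at ZT18 and 189 and 207 at ZT22. ZT14 held the highest value at both ages and ZT2 the lowest. The amplitude was 0.54 (SE 0.14), the peak ZT13.1 and the adjusted p 0.0167. Without ZT10 the adjusted p was 0.0664. An antisense RNA gene, Hnf4aos, shares 34913 bases and averaged 5.10 scaled TPM, so the split of reads is uncertain. Of 8 tested HNF4A targets, 0 were rhythmic by limma, against 23.9% of all genes, and 0 differed by age, against 1.63%. At an unadjusted p under 0.05 there was 1 each, against 35.4% of all genes for rhythm and 11.7% for age. The median amplitude of these targets was 0.24, against 0.36 over all genes.

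Nr2f2 (chr7:70351946-70366735, minus strand) encodes COUP-TFII, a receptor of veins and mesenchymal cells. In old liver Nr2f2 had scaled TPM of 9.02 and 9.05 at ZT2, 13 and 14.2 at ZT6, 10.7 and 10.9 at ZT10, 7.0 and 10.7 at ZT14, 8.37 and 7.55 at ZT18 and 7.43 and 9.58 at ZT22. In young liver Nr2f2 was at 7.93 and 10.4 at ZT2, 14.3 and 12.4 at ZT6, 16.9 and 13.2 at ZT10, 8.48 and 8.67 at ZT14, 8.45 and 9.09 at ZT18 and 7.84 and 8.72 at ZT22. The 8 libraries of ZT6 and ZT10 spanned 10.70 to 16.9, and the other 16 spanned 7.005 to 10.69. The amplitude was 0.72 (SE 0.13), the peak ZT7.6 and the adjusted p 0.000883. Summed markers of sinusoidal endothelium were 159 to 206 scaled TPM at ZT6 and ZT10 and 151 to 225 at the other times. For stellate cells and fibroblasts the sums were 173 to 272 and 181 to 299.6. These sums overlapped across times.

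Nr2c2, which encodes the orphan receptor TR4, had an amplitude of 0.75 (SE 0.20), a peak at ZT4.4 and an adjusted p of 0.0267, and without the 2 libraries that stood apart 0.0508. It shares 3533 bases with Mrps25. Nr2f6, a further COUP-TF relative, had the smallest amplitude of the 15, 0.37 (SE 0.10, peak ZT23.3, adjusted p = 0.0289), and lost its call in 10 of 35 alternatives. These included leaving out either ZT10 library of either age, old ZT2 replicate 1 or young ZT14 replicate 2 (adjusted p up to 0.0722). It shares 5239 bases with Ocel1. Nr2c1 was not rhythmic (amplitude 0.32), and replicate 2 was the higher library in 12 of 12 groups. Its rhythm passed only on coverage values (adjusted p = 0.0431 by limma).

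Esrra (chr19:6910977-6921813, minus strand) encodes the estrogen-related receptor alpha, a regulator of mitochondrial genes. In old liver Esrra had scaled TPM of 12.9 and 17.2 at ZT2, 16.1 and 12.3 at ZT6, 18.9 and 15.6 at ZT10, 34.4 and 20.8 at ZT14, 22.7 and 16.1 at ZT18 and 17.6 and 13.9 at ZT22. In young liver Esrra was at 13.5 and 15.5 at ZT2, 15.4 and 12.5 at ZT6, 21.6 and 26.2 at ZT10, 29.4 and 22.2 at ZT14, 20.0 and 18.3 at ZT18 and 17.2 and 19.1 at ZT22. The highest value at both ages was that of ZT14 replicate 1. The amplitude was 0.78 (SE 0.15), the peak ZT14.5 and the adjusted p 0.00215. Of 6 tested targets of this receptor, 3 were rhythmic, against 23.9% of all genes. Over the day 0 of the 6 differed by age, against 1.63% of all genes (2 unadjusted, against 11.7%). Esrra shares 73 bases with Trmt112 on the other strand. The citrate cycle gene Idh3a peaked at ZT14.5 (amplitude 0.73) and cytochrome c, Cycs, at ZT19.0 (0.76).

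Nr5a2, a regulator of bile acid synthesis in liver that is also expressed in pancreatic acinar cells, had an amplitude of 0.49 and did not pass (adjusted p = 0.0784). It passed on coverage values and with a replicate block. It also passed when young ZT18 replicate 2, the library with pancreatic markers, or old ZT18 replicate 2 was left out (lowest adjusted p 0.0214). In that library with pancreatic markers Nr5a2 was at 19.2 scaled TPM, within the young range of 12.4 to 25.1. Nr6a1, known from germ cells and early embryos, was near the filter, at 0.844 to 4.97 scaled TPM in old (median 1.31) and 0.941 to 2.27 in young (median 1.47). Its call (amplitude 0.76, peak ZT3.2, adjusted p = 0.0370) was lost in 13 of 34 alternatives, among them that without the 2 libraries that stood apart. Leaving out replicate 2 of ZT2 or ZT6 at either age, replicate 1 of ZT14 at either age or young ZT18 replicate 1 also ended it (adjusted p up to 0.0796).

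Nr4a1, an immediate early gene that is induced within minutes by many stimuli, differed most between replicates. In old liver Nr4a1 had scaled TPM of 2.5 and 14.6 at ZT2, 0.113 and 8.26 at ZT6, 0.174 and 13.4 at ZT10, 0.092 and 0.442 at ZT14, 0.273 and 1.34 at ZT18 and 0 and 0.491 at ZT22. In young liver Nr4a1 was at 0.556 and 1.89 at ZT2, 1.17 and 4.15 at ZT6, 0.655 and 6.87 at ZT10, 0.326 and 0.325 at ZT14, 0.263 and 0 at ZT18 and 0.278 and 0.296 at ZT22. At ZT2, ZT6 and ZT10 replicate 2 was the higher at both ages, and from ZT14 on no value exceeded 1.34. The fitted amplitude was 2.40 (SE 0.73), with an adjusted p of 0.0532. It passed when old ZT6 replicate 1, old ZT10 replicate 1 or old ZT18 replicate 2 was left out (lowest adjusted p 0.00844). Replicate 2 was the higher in 10 of 12 groups, and the rhythm also passed with a replicate block (adjusted p = 0.0115 by limma).

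Set side by side, the lists had the following median amplitudes, and differences between lists were not tested. The lists were chosen with earlier results of these data known, so their amplitudes, rhythmic shares and shares that differed by age are descriptions only. The median amplitude was 1.64 for glucocorticoid targets, 1.03 for FXR and SHP targets, 0.93 for thyroid hormone targets and 0.62 for CAR and PXR targets. It was 0.53 for retinoid genes, 0.52 for PPAR targets, 0.50 for LXR targets and 0.44 for estrogen-related receptor targets, 0.29 for coregulators and 0.24 for HNF4A targets. Over all genes tested it was 0.36, and 23.9% were rhythmic. Nr3c1 did not pass the test while 80.0% of its listed targets cycled, and Hnf4a was rhythmic while none of its 8 listed targets were. The median log2 age differences of these lists lay between -0.18 (CAR and PXR targets) and 0.17 (glucocorticoid targets).

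The third question was whether the rhythms differed by age. In old liver alone 5 of 28 receptors passed, Ppard, Thra, Nr1h4, Nr1i2 and Nr0b2, against 8.97% of all genes tested. In young liver alone 9 of 28 passed, Ppard, Thra, Esr1, Nr3c2, Nr1h4, Nr1i3, Nr0b2, Nr2f2 and Esrra, against 10.8% of all genes. Ppard, Thra, Nr1h4 and Nr0b2 passed at both ages, 4 of 28 against 5.47% of all genes. Without ZT10 the counts were 3 in old and 5 in young, and the young count was also 5 without young ZT10 replicate 1 or young ZT14 replicate 2. Passing at 1 age only does not show a difference. The test of the difference itself was passed by 0 of 28 receptors and 0% of all genes, and 1 of 28 had an unadjusted p under 0.05, against 3.5% of all genes. Nr1i2 was the receptor with that p, and had an amplitude of 0.81 in old and 0.36 in young liver (unadjusted p = 0.0434, adjusted p = 0.9999 by limma).

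For the receptors of the largest amplitude the ages compare as follows. Ppard amplitudes were 2.93 in old and 2.92 in young, a difference of 0.01 (SE 0.62). For Nr0b2 they were 1.66 in old and 1.47 in young, and for Thra 1.11 in old and 1.10 in young. Ppara had 0.97 in old and 1.41 in young, Esr1 had 0.84 in old and 1.43 in young, and Nr3c2 had 0.72 in old and 1.42 in young. Of the 15 rhythmic receptors, 9 had the lower amplitude in old. The share of all rhythmic genes with the lower amplitude in old was not counted, so no damping of the receptors is shown. The median amplitude was 0.63 in old and 0.61 in young over the 28 tested, against 0.39 in old and 0.44 in young over all genes. Fitted peaks lay within 4 h at both ages for 14 of the 15, and the exception was Nr3c2, at ZT4.6 in old and ZT9.3 in young. The 15 were picked by the fit on the mean of both ages, which favours genes with like peaks. That count therefore does not test whether peak times were kept with age. With 12 libraries an age, the SE of an amplitude difference for Ppara was 0.56, so an amplitude difference of that size could not be told from 0.

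The last question was whether the level over the day differed by age. None of the 28 tested receptors passed (0 of 28 by limma), against 1.63% of all genes tested. Of the genes that passed, 139 rose and 61 fell in old liver (225 and 38 with the deposited TPM unscaled). An unadjusted p under 0.05 was reached by 1 of 28, Pparg, against 11.7% of all genes in either direction and 5.94% higher in old. Pparg was at 8.19 ± 2.47 scaled TPM in old and 5.97 ± 1.36 in young liver (SD, n = 12 each). Its log2 difference was 0.40 (SE 0.13, unadjusted p = 0.00598, adjusted p = 0.158), and its old range of 4.45 to 12.8 overlapped the young range of 4.01 to 8.17.

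The differences of the 28 ran from -0.24 (Rarb) to 0.42 (Nr4a1), with a median of -0.03, against -0.01 over all genes. They were above 0 for 12 and below 0 for 16 receptors, a split that became 25 above and 3 below with unscaled deposited TPM, where the median of all genes was 0.09. The 95% interval lay within 0.5 of 0 on the log2 scale for 23 of 28 and within 1 of 0 for 27 of 28, all but Nr4a1. For Hnf4a, Nr1h4 and Nr1i2 the differences were -0.05, -0.08 and -0.10, with SE of 0.08, 0.07 and 0.08.

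**Figure D5:**
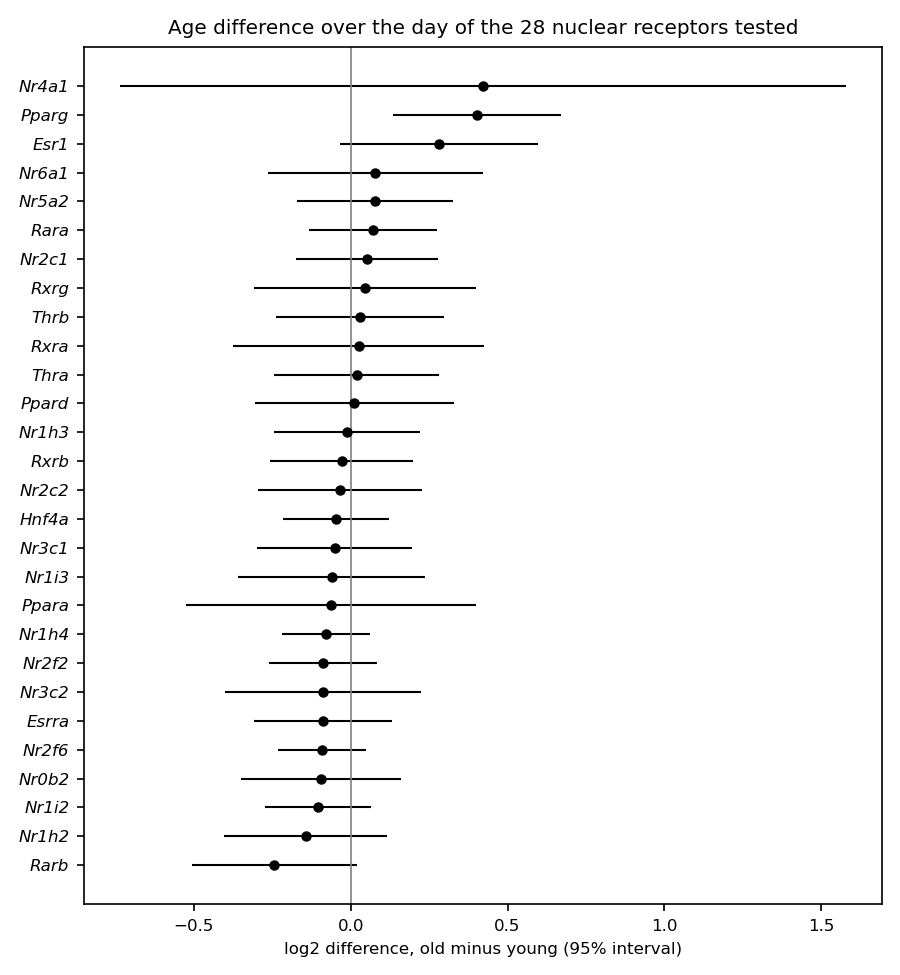
Difference of log2(scaled TPM + 0.5), old minus young over the day, for the 28 receptors tested, with 95% intervals from limma that are not adjusted for the number of genes. The interval of Pparg excludes 0, the other 27 include it, and that of Nr4a1 is the widest.

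At single times 0 of 28 receptors passed, against 0% of all genes at ZT2 and ZT6, 0.531% at ZT10, 0.0409% at ZT14, 0.0245% at ZT18 and 0.00817% at ZT22. An unadjusted p under 0.05 was reached by 1, 2, 2, 0, 1 and 0 of 28 at ZT2, ZT6, ZT10, ZT14, ZT18 and ZT22, against 4%, 4.05%, 7.9%, 7.85%, 4.64% and 3.06% of all genes. At ZT10 these were Nr3c2 (-0.95, SE 0.36) and Nr2f2 (-0.45, SE 0.20). The test of an age difference that varied over the times was passed by 0 of 28, against 0.0163% of all genes, and 0 of 28 had an unadjusted p under 0.05, against 3.6% of all genes.

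Receptors outside the list give a scale. The REV-ERB and ROR genes had a median amplitude of 2.78 over 4 tested genes, of which 3 were rhythmic, against 23.9% of all genes. The amplitude of Ppard (2.91) came nearest to that median among the members. Of 13 further nuclear receptor genes, 2 were above the filter, and 0 of these were rhythmic by limma, against 23.9% of all genes. An unadjusted p under 0.05 was reached by 1 of these 2, against 35.4% of all genes.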

How the data were processed

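Per the labels, mRNA was selected with oligo-dT from liver and read from a single end in 50 bases with a strand-specific protocol. HISAT2 alignment to GRCm38 and StringTie quantification are named in the submitters' processing notes, without versions, and whether counting used the strand is not given in the sources used here. The deposited coverage (signal) is the mean read depth per base that the authors' StringTie run wrote for a gene. The deposited FPKM and the deposited TPM are from the same run by the authors, TPM with a fixed sum per library. The ratio of coverage to FPKM differed between genes (median per receptor 6.46% to 100% of a high quantile of the library's ratios), so FPKM is not that coverage scaled for depth alone. No read counts were used, so counting error per value is unknown. Depth was taken per library from the same high quantile of its coverage to FPKM ratios.

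TPM were summed per gene identifier and scaled by size factors (median of ratios, from the 13270 genes with a value above 0 in each of the 24 libraries). Genes with a mean of at least 1 scaled TPM were kept, 12234 in all. Fits used limma 3.58.1 under R 4.3.3 with an intensity trend, on log2(scaled TPM + 0.5), so a fold change of a low gene is understated. A model of the 12 age and time groups gave age differences, and a 24 h cosine and sine per age gave rhythms. Calls needed an adjusted p (Benjamini-Hochberg over all genes tested) under 0.05. The steps were tested on simulated data. Tables were read with pandas 2.3.3 and numpy 2.4.6 under Python 3.11.15, and plots made with matplotlib 3.10.9. All members are described by role, and of each target list the counts with up to 4 of the genes with the smallest p, where some single genes are not reported here. Members, target lists and tests were chosen with earlier results of these data known. Alternatives were the unscaled TPM and FPKM, coverage, quantile normalization, pseudocounts of 0.1 and 1, no filter or a filter at 5, a replicate block, and leaving out ZT10, a pair of libraries or 1 library at a time.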

Additional observations from a re-analysis of the deposited data

How the results depend on the processing

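Receptors with an age difference over the day, at single times or in rhythm numbered 0 under every alternative run. Receptors rhythmic on the mean of both ages numbered 15, and 10 to 18 under the alternatives, with 9 called in every one that tested them. The low end came without ZT10 and the filter at 5 scaled TPM left 11, since fewer genes were tested. Receptors rhythmic in old liver numbered 5, and 3 without ZT10 (4 to 7 leaving out 1 library). Those rhythmic in young liver numbered 9, and 5 without ZT10 (5 to 11 leaving out 1 library, the low end without young ZT10 replicate 1 or young ZT14 replicate 2). The cause was not tested beyond the fewer libraries fitted. Coverage values, chosen after seeing the data, called 15 receptors on the mean of both ages, of which 12 were shared.

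A replicate block raised the rhythmic receptors to 18 on the mean of both ages, 8 in old and 12 in young. Gained on the mean of both ages were Nr1h3, Nr5a2 and Nr4a1. Deviations of same-numbered libraries correlated over 0.1 in 52 of 66 pairs of groups (lowest -0.16, median 0.19), a tendency shared by most but not all pairs. The labels do not say what the number marks, so it was not taken to pair the samples.

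The sign of the log2 age difference (old minus young) of receptors that passed no test changed as follows, and the cause was not tested. With the unscaled deposited TPM it was 0.045 for Ppara, 0.078 for Rxrb, 0.058 for Nr3c1, 0.099 for Nr1h3, 0.032 for Nr1h4, 0.0047 for Nr1i2, 0.049 for Nr1i3, 0.012 for Nr0b2, 0.063 for Hnf4a, 0.059 for Nr2c2, 0.017 for Nr2f2, 0.018 for Nr2f6 and 0.019 for Esrra. With the unscaled deposited FPKM it was 0.0029 for Ppara, 0.037 for Rxrb, 0.016 for Nr3c1, 0.057 for Nr1h3, 0.0080 for Nr1i3, 0.021 for Hnf4a and 0.022 for Nr2c2. Without the 2 libraries that stood apart it was 0.0995 for Ppara, -0.025 for Rxrg, -0.014 for Thra and 0.031 for Nr2c2. Without ZT10 it was 0.031 for Ppara, 0.084 for Nr3c2 and 0.047 for Nr2c2. With coverage scaled for depth it was 0.0090 for Ppara, -0.00556 for Rxrg, 0.030 for Nr3c1, 0.000896 for Hnf4a, 0.011 for Nr2c2 and -0.0023 for Nr6a1. With quantile normalization it was -0.030 for Ppard, 0.031 for Nr1h3 and 0.0066 for Hnf4a. Leaving out 1 library at a time, the difference ranged over Nr1h3 -0.082 to 0.060, Nr1i3 -0.15 to 0.031, Nr2c2 -0.12 to 0.055, Nr3c1 -0.12 to 0.016, Nr3c2 -0.19 to 0.010, Nr6a1 -0.021 to 0.18, Ppara -0.19 to 0.065, Ppard -0.067 to 0.090, Rxra -0.12 to 0.17, Rxrb -0.074 to 0.016, Rxrg -0.046 to 0.14, Thra -0.064 to 0.10 and Thrb -0.029 to 0.088.

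Values below a few scaled TPM rest on few reads, and with 2 libraries per age and time small changes were not detectable.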
